A study of Mus musculus with 16 samples.

Results

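The cluster consists of 10 gene rows from a duplicated interval of mouse chromosome 4, described across hypothalamic RNA of mice with and without the leptin receptor gene Lepr in PNOC neurons. It holds 8 predicted genes and pseudogenes (Gm20938, Gm21093, Gm13304, Gm13306, Gm5859, Gm10600, Gm3883 and Gm13301) and their named neighbours Ccl27a and Il11ra1. The members are 10 of the 45706 gene rows that were measured, and the 8 predicted genes were selected on their genotype differences in these same libraries, with the other 2 named as their neighbours. The genotype differences of all 10 are therefore given as descriptions without a test.

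The series used bacTRAP, in which ribosomes that carry a GFP-tagged L10a protein are precipitated so that the RNA of a chosen cell type can be sequenced. The Lepr-deletion group (labelled Pnoc Lepr deletion, pools 5 to 8) and the control group (Lepr-flox, pools 1 to 4) both carried the ROSA-STOP-L10a-bactrap allele, which is switched on by Cre in cells expressing Pnoc, which encodes prepronociceptin, a neuropeptide precursor. Each pool held the hypothalami of 4 animals at 12 weeks of age (the extraction protocol gives a range that ends at that age), of C57Bl/6N background, eating chow and sampled random-fed in the morning. Each pool gave a pulldown library of precipitated ribosomes and an input library of its lysate, so that there were 4 libraries in each of the groups Lepr-deletion pulldown, control pulldown, Lepr-deletion input and control input. Animals of a pool cannot be told apart, and fewer cells of a type and less RNA per cell cannot be told apart in such bulk RNA.

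Segmental duplications copy a stretch of chromosome with the genes in it, and copies that are still nearly identical share most of their sequencing reads. The interval between the Il11ra and Ccl21 genes is a known example in the mouse, where copies of a cytokine receptor gene and of chemokine genes lie side by side and where the number of copies differs between mouse strains. The chemokine CCL27 attracts lymphocytes to the skin through the receptor CCR10, CCL21 guides lymphocytes and dendritic cells to lymph nodes through CCR7, and IL11RA binds interleukin-11 and signals through the shared subunit gp130.

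By the RefSeq annotation of GRCm38.p6, 9 of the 10 members lie on chromosome 4 between 41760443 and 42472816, a span of 712 kb. The centromere-proximal pair is Il11ra1 (ENSMUSG00000073889, 41760443 to 41769473, plus strand) and Ccl27a (ENSMUSG00000073888, 41769467 to 41774225, minus strand). Their ends overlap by 7 bases, and since the sources used here do not give the strand setting of the counting, reads there cannot be told apart. A gap of 168.1 kb leads to Gm20938 (ENSMUSG00000078746, 41942295 to 41971858), which RefSeq calls Fam205a4. It is followed by Gm21093 (ENSMUSG00000096256, 42021268 to 42027365), Gm13304 (ENSMUSG00000073878, 42114787 to 42115917), Gm13306 (ENSMUSG00000073877, 42153404 to 42158846), Gm5859 (ENSMUSG00000073879, 42233241 to 42236503), Gm10600 (ENSMUSG00000083929, 42244297 to 42244748) and Gm3883 (ENSMUSG00000093909, 42453369 to 42472816). Gm13304, Gm13306, Gm20938, Ccl27a and Il11ra1 are annotated as protein-coding and the other 4 placed members as pseudogenes, with Gm5859 and Gm3883 marked as transcribed. Gm13301 (ENSMUSG00000096862) was not matched to a RefSeq entry and is used here without a position. Lepr itself lies on the same chromosome at 101717137 to 101815352, between 59.2 and 59.9 Mb from the placed members.

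Names differ between the sources, and rows were therefore followed by their Ensembl identifier. The authors' deposited table calls the row of Gm5859 Gm54215 and the row of Gm13301 Gm5859, and it lists Gm21093 as 4933409K07Rik. Positions and annotated gene types were taken through the names of the count table, and those of Gm5859 and Gm21093 hold only as far as these names do.

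Some members have near-identical copies in the interval, and rows were grouped by family name for this comparison. The rows grouped as CCL21 copies are Gm13304, Gm21541 (Ccl21d in RefSeq), Ccl21b, Gm10591 and Ccl21a. Gm13306 was set beside Ccl27a and Ccl27b, Il11ra1 beside Gm13305 and Il11ra2, and Gm20938 beside Gm21598, Gm13298 and Gm12429, which RefSeq calls Fam205a3, Fam205a2 and Fam205a1. RefSeq windows of 300 bases around annotated starts (250 before and 50 after) were at hand for 4 of the 9 placed members, namely Gm13304, Gm13306, Ccl27a and Il11ra1. The stretches of 240 bases that end at or next to the start of 3 CCL21 copies are shown because they carry how little separates the copies. Capitals mark the 2 positions at which any of the 3 differ. They are from GRCm38.p6, Gm13304 at chr4:42114547-42114786 on the plus strand, Ccl21d at chr4:41903373-41903612 on the plus strand and Ccl21a at chr4:42773991-42774230 on the minus strand.
Gm13304: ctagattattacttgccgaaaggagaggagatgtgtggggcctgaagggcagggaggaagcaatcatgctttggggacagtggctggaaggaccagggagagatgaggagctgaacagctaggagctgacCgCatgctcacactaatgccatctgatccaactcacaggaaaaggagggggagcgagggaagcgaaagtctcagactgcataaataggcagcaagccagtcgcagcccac
Ccl21d: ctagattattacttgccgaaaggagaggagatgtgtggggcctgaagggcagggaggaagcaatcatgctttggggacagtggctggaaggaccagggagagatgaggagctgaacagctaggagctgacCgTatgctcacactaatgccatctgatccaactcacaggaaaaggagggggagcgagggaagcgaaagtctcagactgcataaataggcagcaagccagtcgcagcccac
Ccl21a: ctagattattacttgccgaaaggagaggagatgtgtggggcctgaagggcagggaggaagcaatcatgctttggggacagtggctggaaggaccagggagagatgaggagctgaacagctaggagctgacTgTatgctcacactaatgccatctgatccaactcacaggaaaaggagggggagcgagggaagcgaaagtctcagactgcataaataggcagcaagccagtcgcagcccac

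Gm13304 and Ccl21d differed at 1 of these 240 positions, and Gm13304 and Ccl21a differed at 2. The whole window of Gm10591 was identical to that of Gm13304 at 300 of 300 bases. The annotated start of Ccl21b was unlike the others, with 98 of 298 bases in the best ungapped match to Gm13304. The windows of Il11ra1 were unlike those of Gm13305 and Il11ra2 too, with 30.1% to 30.9% identical bases in the best ungapped matches, while Gm13305 and Il11ra2 were identical at 299 of 299 bases. No window was compared for the FAM205A copies.

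All 4 annotated start windows of Gm13306 were identical to those of Ccl27b at 300 of 300 bases. For Ccl27a the closest match to Gm13306 was at a start inside the gene, where 286 of 288 bases were identical. The 100 bases at that start are shown for the 3 copies, with the single position that differs in capitals, from GRCm38.p6 at chr4:42157992-42158091 (plus strand) for Gm13306, chr4:42655151-42655250 (plus strand) for Ccl27b and chr4:41770225-41770324 (minus strand) for Ccl27a.
Gm13306: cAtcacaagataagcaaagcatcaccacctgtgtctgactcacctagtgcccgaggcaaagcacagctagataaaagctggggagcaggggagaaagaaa
Ccl27b: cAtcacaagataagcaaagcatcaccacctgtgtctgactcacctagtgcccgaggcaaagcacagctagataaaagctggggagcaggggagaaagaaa
Ccl27a: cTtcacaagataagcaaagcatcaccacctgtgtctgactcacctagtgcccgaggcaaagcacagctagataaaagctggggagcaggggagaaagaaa

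These windows describe the starts only, and how far the rest of each transcript differs was not analysed here.

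Library totals were between 64435952 and 78623636 estimated counts, and 3 counts, taken as the floor, correspond to between 0.0321 and 0.0562 CPM. CPM are estimated counts as a share of the TMM-scaled library total, and they compare libraries but not genes of unequal length. Neuron markers were higher in pulldown than input for 5 of 5 genes, and GABAergic markers for 3 of 3, while the markers of astrocytes, oligodendrocytes and microglia were lower for 5 of 5 each (edgeR's quasi-likelihood test, adjusted p under 0.05). Between genotypes, edgeR called the astrocyte marker Gja1 lower in Lepr-deletion input (log2 fold change -0.33, adjusted p = 0.00649) and no other of these markers. In pulldown Gja1 had 0.59 (adjusted p = 0.0976, edgeR). DESeq2 called Gfap and Gja1 in input, and Gja1, Gad1 and Gad2 in pulldown. Their part in the values of the members was not tested. Pnoc had a log2 pulldown over input of 1.69 ± 0.086 (SE; adjusted p = 1.3e-12, edgeR). The targeted gene Lepr averaged 2.62 ± 0.171 CPM in Lepr-deletion pulldown and 1.62 ± 0.185 CPM in control pulldown (SD, n = 4 each), and its log2 fold change was 0.71 with an adjusted p of 0.0386 in edgeR. By limma on log2(TPM + 1) and on log2(TPM + 0.1), Lepr was not under an unadjusted p of 0.05 in pulldown. In input Lepr averaged 6.04 ± 1.49 CPM in Lepr-deletion pools and 4.29 ± 0.696 CPM in control pools (adjusted p = 0.229, edgeR). A total over the gene does not show which part was deleted, so it does not check the labels.

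All 8 predicted genes had higher levels in the Lepr-deletion libraries than in the controls, in the precipitated ribosomes and in the whole-hypothalamus input alike, while Ccl27a and Il11ra1 next to them did not. The 8 predicted genes together averaged 68.8 ± 3.62 CPM in Lepr-deletion pulldown and 27.7 ± 1.7 CPM in control pulldown (SD, n = 4 each). In input the sum was 52.2 ± 4.53 CPM in Lepr-deletion pools and 21.4 ± 0.514 CPM in control pools. The ratio of the means was 2.48 in pulldown and 2.44 in input. Groups did not overlap for 8 of the 10 members in pulldown in the higher direction, where 5.08% of the 16859 genes tested did so, and for 7 of 10 in input, against 4.06% of 17735 genes. Nothing is read from these shares, because the members were picked for this difference. Gm20938, Gm3883, Gm21093 and Gm13306 were at 1.59 to 2.27 times the control mean, and the other 4 predicted genes were at or near 0 in controls.

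**Figure D1:**
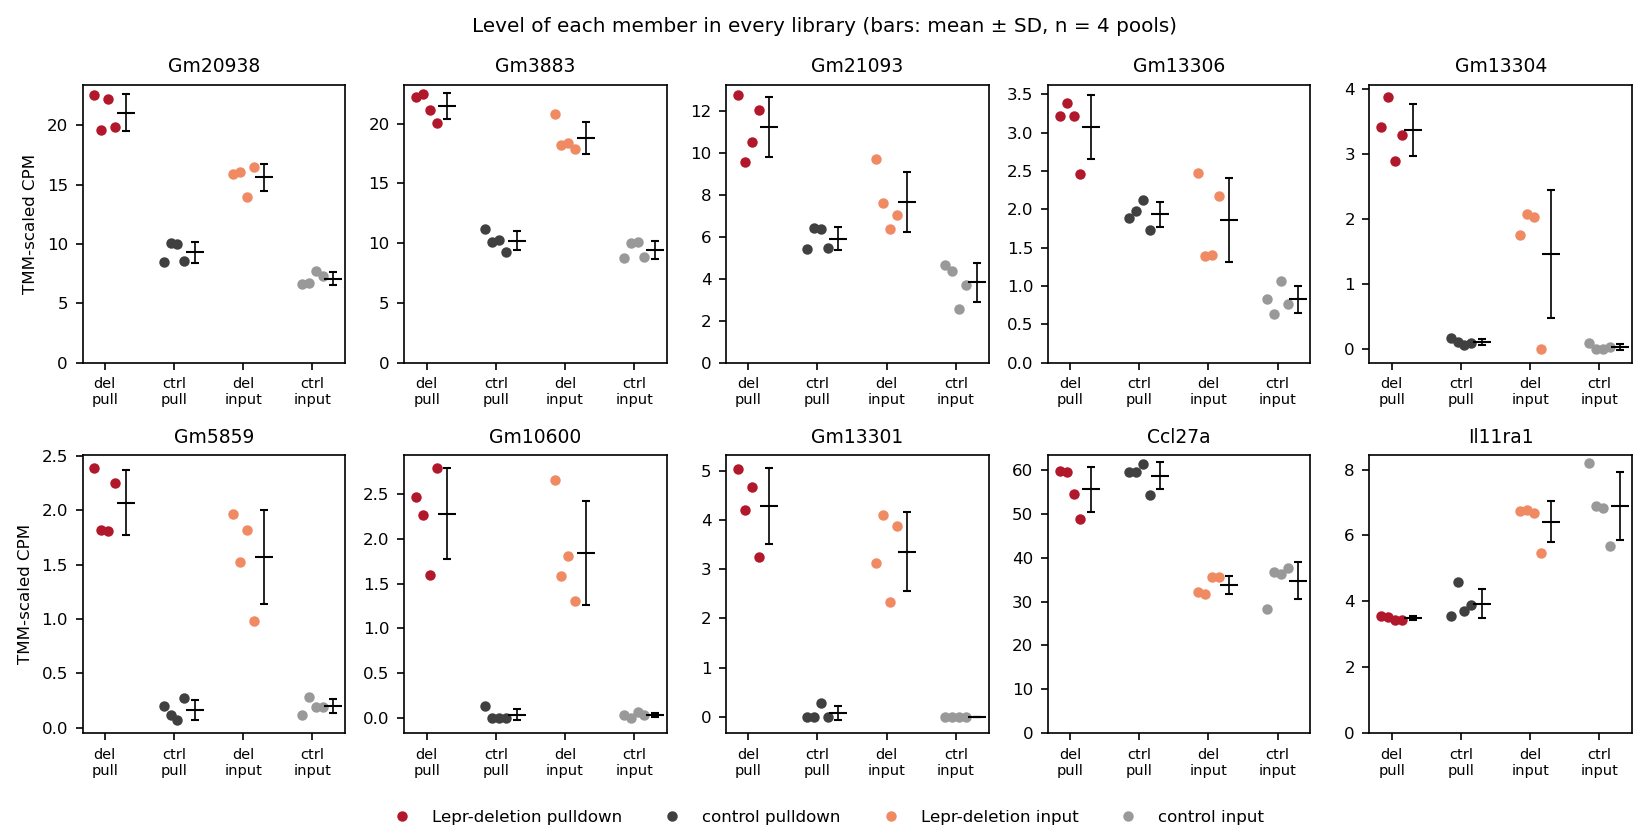
TMM-scaled CPM of the 10 members in each library, with 1 panel per gene and its own axis (del: Lepr deletion; ctrl: control; pull: pulldown). Points are pools and bars are mean ± SD of 4 pools. Gm13304, Gm5859, Gm10600 and Gm13301 sit close to 0 in controls, and Gm13304 is at 0 in 1 Lepr-deletion input pool.

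Gm20938 belongs to the FAM205A family, whose function is not well described. Its pulldown values were 22.6, 19.6, 22.2 and 19.8 CPM in Lepr-deletion pools 5 to 8, against 8.48, 10.1, 10.0 and 8.6 CPM in control pools 1 to 4. Its input values were 15.93, 16.03, 13.97 and 16.46 CPM in Lepr-deletion pools, against 6.62, 6.68, 7.72 and 7.27 CPM in control pools. Every Lepr-deletion library lay above every control library, and the ratio of means was 2.27 in pulldown and 2.21 in input. Its log2 fold change was 1.19 ± 0.083 (SE) in pulldown and 1.14 ± 0.084 in input.

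Gm3883, a transcribed pseudogene at the far end of the interval, had 22.2, 22.5, 21.1 and 20.0 CPM in Lepr-deletion pulldown, against 11.1, 10.1, 10.3 and 9.26 CPM in control pulldown. Its input values were 20.8, 18.2, 18.4 and 17.9 CPM in Lepr-deletion pools and 8.77, 9.97, 10.1 and 8.8 CPM in control pools. The groups were again apart in both fractions. The ratio of means was 2.1 in pulldown and 2.0 in input, with log2 fold changes of 1.09 ± 0.067 and 1.0 ± 0.081 (SE).

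Gm21093, annotated under this name as a pseudogene, had 9.56 to 12.7 CPM in Lepr-deletion pulldown and 5.43 to 6.4 CPM in control pulldown. In input it had 6.35 to 9.68 CPM in Lepr-deletion pools and 2.57 to 4.67 CPM in control pools. No pools overlapped between genotypes, and the ratio of means was 1.9 in pulldown and 2.01 in input.

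Gm13306, the copy of the CCL27 chemokine gene, had the smallest difference of the 8 predicted genes in pulldown. It had 3.22, 3.39, 3.21 and 2.46 CPM in Lepr-deletion pulldown, against 1.89, 1.98, 2.12 and 1.74 CPM in control pulldown. In input it had 2.48, 1.39, 1.4 and 2.17 CPM in Lepr-deletion pools, against 0.834, 0.638, 1.065 and 0.768 CPM in control pools. The genotypes did not overlap, the ratio of means was 1.59 in pulldown and 2.25 in input, and the log2 fold changes were 0.68 ± 0.13 and 1.16 ± 0.25 (SE).

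The other 4 predicted genes were at or close to 0 in control libraries. Gm13304, a CCL21 copy, had estimated counts of 289, 358, 249 and 250 in Lepr-deletion pulldown, against 15, 10, 5 and 8 in control pulldown. In input its counts were 96, 133, 120 and 0 in Lepr-deletion pools, against 5, 0, 0 and 2 in control pools. The pulldown groups were far apart, with a ratio of mean CPM of 31.8 and a log2 fold change of 4.99 ± 0.23 (SE). In input the groups overlapped through Lepr-deletion pool 8, and the gene did not pass the filter on low counts.

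The pseudogene Gm10600 had estimated counts of 209, 210, 138 and 212 in Lepr-deletion pulldown, against 10.9, 0, 0 and 0 in control pulldown. Its input counts were 145, 101, 107 and 78.0 in Lepr-deletion pools and 1.94, 0, 3.77 and 1.83 in control pools. The control means lay under the floor of 3 counts per library. Against that floor, averaged over the control libraries, the Lepr-deletion mean was 68.3 times as high in pulldown and 35.3 times in input. A control library exceeded the floor in each fraction, with 10.9 counts in pulldown and 3.77 counts in input. These multiples of the floor are therefore not lower bounds over the control pools.

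Gm13301 had estimated counts of 426, 389, 402 and 247 in Lepr-deletion pulldown, against 0, 0, 24.7 and 0 in control pulldown. Its input counts were 171, 262, 137 and 231 in Lepr-deletion pools and 0 in every control pool. The ratio of mean CPM was 60.3 in pulldown, with a control mean that rests on pool 3 alone. Without pool 3 the control pulldowns were all at 0, and the Lepr-deletion mean was 129 times the floor. That value leaves out the only control pulldown with counts, so it is not a lower bound over the 4 control pools. In input the Lepr-deletion mean of 3.36 ± 0.801 CPM was at least 64.3-fold higher than a floor of 3 counts per library.

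Gm5859, annotated under this name as a transcribed pseudogene, was low but present in every control library. It had estimated counts of 202, 168, 156 and 171 in Lepr-deletion pulldown, against 17.8, 11.5, 5.98 and 25.3 in control pulldown. Its input counts were 107, 97.6, 107 and 58.4 in Lepr-deletion pools and 6.98, 15.3, 12.1 and 11.3 in control pools. The groups did not overlap, and the ratio of mean CPM was 12.3 in pulldown and 7.87 in input.

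Ccl27a, the chemokine gene at the near end, had 59.7, 59.5, 54.5 and 48.8 CPM in Lepr-deletion pulldown, against 59.5, 59.6, 61.4 and 54.3 CPM in control pulldown. Its input values were 32.3, 31.6, 35.6 and 35.5 CPM in Lepr-deletion pools and 28.4, 36.7, 36.2 and 37.7 CPM in control pools. The genotypes overlapped in both fractions. The log2 fold change was -0.065 ± 0.067 in pulldown and -0.043 ± 0.083 in input (SE).

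Il11ra1, the receptor gene beside it, had 3.55, 3.52, 3.42 and 3.44 CPM in Lepr-deletion pulldown, against 3.57, 4.58, 3.69 and 3.89 CPM in control pulldown. Its input values were 6.73, 6.77, 6.68 and 5.48 CPM in Lepr-deletion pools and 8.2, 6.89, 6.84 and 5.69 CPM in control pools. In pulldown the Lepr-deletion libraries all lay below the controls, by a margin of 3.55 against 3.57 CPM at the closest, which 4.93% of genes also did. The log2 fold change was -0.16 ± 0.10 in pulldown and -0.11 ± 0.12 in input (SE).

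Of the 10 members, Ccl27a made up 43.4% ± 1.8 of their summed CPM in Lepr-deletion pulldown and 65.0% ± 0.692 in control pulldown (SD, n = 4 each). In input it made up 36.6% ± 3.15 in Lepr-deletion pools and 55.0% ± 4.07 in control pools. Gm20938 and Gm3883 were the next largest parts, at 16.5% and 16.8% of Lepr-deletion pulldown against 10.3% and 11.3% of control pulldown. The sum over the 10 members had a ratio of means of 1.42 in pulldown and 1.46 in input.

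Levels per transcript length, in TPM, put Ccl27a far above the other members in every group, at 350 ± 24.9 TPM in Lepr-deletion pulldown and 362 ± 14.0 TPM in control pulldown. In Lepr-deletion pulldown the order went on with Gm13306 at 22.2, Il11ra1 at 18.5, Gm21093 at 18.2 and Gm3883 at 17.2 TPM, and the ranges of neighbours in that run overlapped. Gm13304 at 13.2 and Gm20938 at 13.0 TPM overlapped each other and lay below Gm3883, and Gm13301 at 4.64, Gm10600 at 3.02 and Gm5859 at 2.37 TPM formed the low end, each overlapping the next. In control pulldown Il11ra1 at 20.2 TPM lay above Gm13306 at 14.1 TPM without overlap. Gm21093 at 9.37 and Gm3883 at 8.01 TPM overlapped there, Gm20938 had 5.63 TPM, and Gm13304, Gm5859, Gm13301 and Gm10600 had between 0.0394 and 0.401 TPM.

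In input the order of TPM began with Ccl27a and Il11ra1 in both genotypes. Ccl27a had 110 ± 9.18 TPM in Lepr-deletion input and 105 ± 11.9 TPM in control input, and Il11ra1 had 16.7 ± 2.1 TPM in Lepr-deletion input and 17.5 ± 3.18 TPM in control input (SD, n = 4 each). Gm3883, Gm13306 and Gm21093 followed at 8.09, 7.14 and 6.63 TPM in Lepr-deletion input, with overlapping ranges, against 3.8, 3.05 and 3.1 TPM in control input. Since TPM are shares of a library's transcripts, these pulldown and input levels are not set against each other here. Fits of pulldown over input on TPM serve below only as an alternative, to be read against the median of all genes.

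The copies were compared next, because estimated counts divide the reads that several copies share. In Lepr-deletion input pool 8, where Gm13304 was at 0, Gm21541 (Ccl21d) had 104 estimated counts, and in the other 3 Lepr-deletion input pools Gm21541 was at 0. Control input pool 2 likewise had 6 counts in Gm21541 and 0 in Gm13304. Ccl21a had 1.37 counts in 1 library in all, and Ccl21b and Gm10591 were listed at 0 in all 16 libraries. Summed over the 5 copies, counts were 289, 358, 249 and 250 in Lepr-deletion pulldown and 15, 10, 5 and 8 in control pulldown. The input sums were 96, 134, 120 and 104 in Lepr-deletion pools, against 5, 6, 0 and 2 in control pools, and they no longer overlapped. The ratio of mean CPM of the summed copies was 31.8 in pulldown and 32.6 in input. The row in which these reads were counted thus differed between libraries, while their sum separated the genotypes in both fractions. Which copy the reads came from was not tested.

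**Figure D2:**
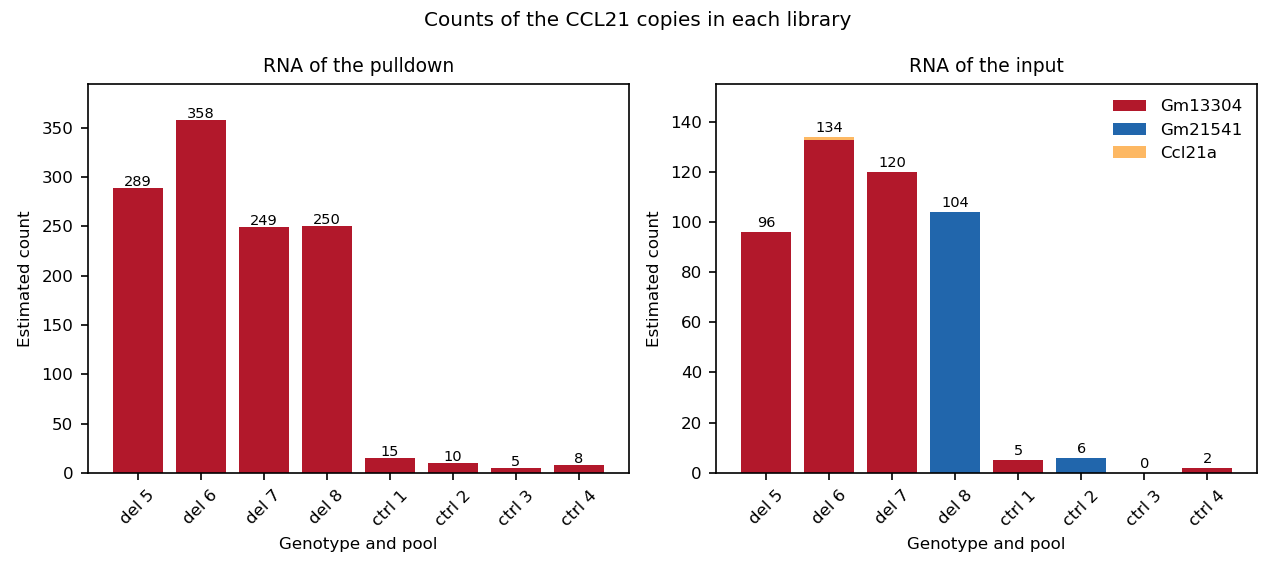
Estimated counts of the CCL21 copies in each library, stacked, with pulldown on the left and input on the right (del: Lepr-deletion pools 5 to 8; ctrl: control pools 1 to 4). The number above a bar is the sum. In Lepr-deletion input pool 8 the 104 counts stand in Gm21541, as do the 6 counts of control input pool 2. Elsewhere the counts stand in Gm13304, but for 1.37 in Ccl21a in 1 Lepr-deletion input pool.

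The other families were summed in the same way. The CCL27 copies had a ratio of summed means of 0.97 in pulldown and 1.0 in input, with 58.8 ± 5.37 CPM in Lepr-deletion pulldown and 60.7 ± 3.28 CPM in control pulldown, so that the difference of Gm13306 is small beside the level of Ccl27a. The IL11RA copies had ratios of 0.897 and 0.931, and Gm13305, next to Gm13306, had 33.1 counts over 9 of the 16 libraries in all. The FAM205A copies had ratios of 2.26 and 2.2, almost all of it in Gm20938.

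The interval holds other genes, and the question was whether they differed as well. Between 41 and 43 Mb there were 56 further gene rows, of which 11 had no count in any library. Of these, 25 were tested in pulldown and 26 in input, and 0 passed an adjusted p of 0.05 in edgeR, where 0.641% of all genes did in pulldown and 0.231% in input. At an unadjusted p under 0.05 there were 5 in pulldown and 2 in input. DESeq2 also called 0 in either fraction, with 6 and 2 at an unadjusted p under 0.05, and limma called 1 in pulldown on log2(TPM + 1) and on log2(TPM + 0.1), and 0 in input. Other edgeR fits in pulldown called 1 with no filter (of 42 tested), with all 16 libraries in 1 fit, without pool 1 and without pool 3, while in input they called 0. The median log2 fold change of the 25 genes in pulldown was -0.02, against -0.01 over all genes, and that of the 26 in input was 0.03, against 0.00. Most of these tested rows lie outside the span of the members, so the counts and medians describe mainly the genes on either side of it. Within the span, Gm13302, Gm20878 and Gm17081 had log2 fold changes of 1.61, 0.39 and 3.82 in pulldown and 2.21, 0.38 and 2.10 in input. Gm11008, also within it and tested in input only, had -1.35.

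The row nearest below the members, Galt, which encodes an enzyme of galactose breakdown, averaged 11.1 ± 1.04 CPM in Lepr-deletion pulldown and 12.3 ± 1.29 CPM in control pulldown (adjusted p = 0.444, edgeR). The nearest tested row above them, the pseudogene Gm2564, averaged 0.211 ± 0.0511 CPM in Lepr-deletion pulldown and 0.246 ± 0.0787 CPM in control pulldown (adjusted p = 0.773, edgeR). The largest values among the other rows were those of pseudogenes between the members, named here after their values were seen. Gm17081, between Gm5859 and Gm10600, averaged 0.258 ± 0.0473 CPM in Lepr-deletion pulldown and 0.0183 ± 0.0367 CPM in control pulldown, with a log2 fold change of 3.82 ± 0.78 (SE) that missed the threshold in edgeR (adjusted p = 0.0541). It is the gene that limma and those other edgeR fits called. Gm13302, between Ccl27a and Gm20938, had a log2 fold change of 1.61 ± 0.63 in pulldown (adjusted p = 0.191, edgeR) and 2.21 ± 0.75 in input (adjusted p = 0.229).

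**Figure D3:**
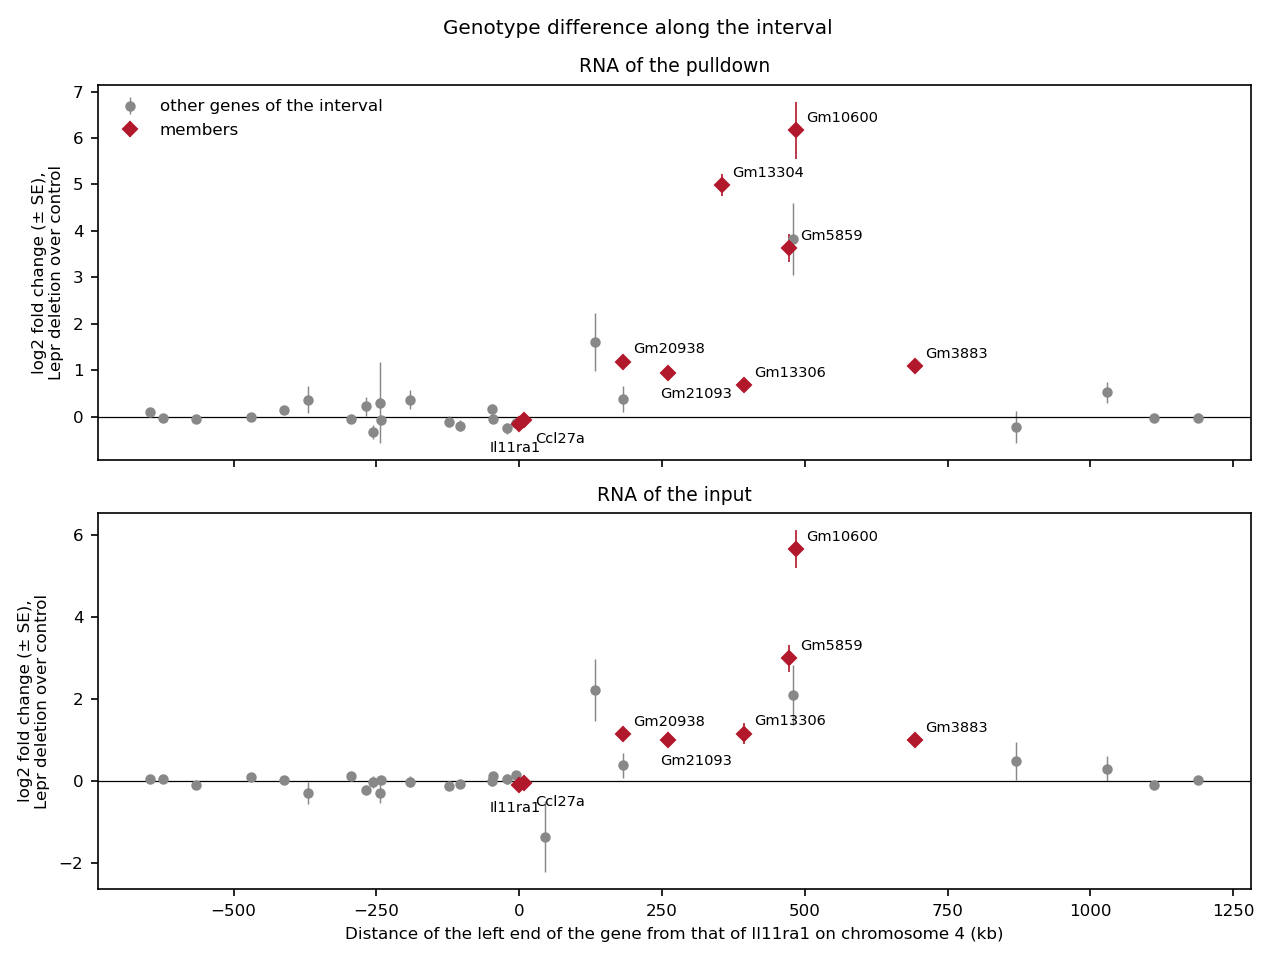
Log2 fold change (± SE) of Lepr deletion over control for the members and for the other tested genes between 41 and 43 Mb, by distance in kb from Il11ra1, for pulldown (top) and input (bottom). Members without a position (Gm13301) or below the filter in input (Gm13304) are not drawn. The values of Il11ra1 and Ccl27a lie close to 0, and those of the members further along lie between 0.68 and 6.16 in pulldown.

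The fractions were compared next, which asks how far the ribosomes of PNOC neurons carried each RNA relative to the whole hypothalamus. This average over both genotypes was not used to pick the members. By edgeR's quasi-likelihood test at an adjusted p of 0.05, 34.1% of the 18530 genes tested were higher in pulldown and 38.4% lower. All 10 members passed the filter, but Gm13304, Gm10600 and Gm13301 passed it through their Lepr-deletion libraries, since only 1 of the 8 control libraries reached its level for each. Their values are therefore given without a test, and no count is taken over the members.

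Ccl27a rose in pulldown, with a log2 pulldown over input of 0.74 ± 0.058 (SE; adjusted p = 8.4e-10, edgeR), and it was higher in pulldown in 8 of 8 pools at 1.37 to 2.1 times the input. Il11ra1 fell with TMM scaling, with -0.85 ± 0.08 (adjusted p = 1.4e-08, edgeR), but it had -0.36 with library totals and 0.17 and 0.18 on log2(TPM + 1) and log2(TPM + 0.1). The median of all genes was -0.02 with TMM, 0.46 with library totals and 0.67 and 0.87 on the TPM scales, so Il11ra1 lay below it on each. On the TMM scale its pulldown was 0.435 to 0.684 times the input in the 8 pools.

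Among the predicted genes Gm13306 had 0.97 ± 0.14 (adjusted p = 3.8e-06), Gm21093 had 0.59 ± 0.11 (adjusted p = 7.8e-05) and Gm20938 had 0.41 ± 0.057 (adjusted p = 2.6e-06), all higher in pulldown in 8 of 8 pools (edgeR). Gm3883 was higher by a small amount, 0.15 ± 0.052 (adjusted p = 0.0124, edgeR), with pulldown at 1.01 to 1.27 times the input. Without pool 1 its adjusted p was 0.0554.

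Gm5859, which 6 of the 8 control libraries held above the filter's level, was not called at 0.09 ± 0.24 (adjusted p = 0.757, edgeR), which does not show equal levels in pulldown and input. Gm13304 had 1.47 ± 0.67 (SE), and over the 5 summed CCL21 copies the value was 0.85 ± 0.28. With the input and pulldown of a pool as a block Gm13304 had 1.66 ± 0.67, and without pool 8, whose input held the 0, it had 1.27 ± 0.34. Gm10600 had 0.08 ± 0.61, and without pool 1 it had -2.04. Gm13301 had 2.87 ± 1.18, a value that rests on the 24.7 counts of control pulldown pool 3 against input controls at 0. Without that pool it had 0.18, and within the Lepr-deletion pools alone it had 0.35 ± 0.45.

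**Figure D4:**
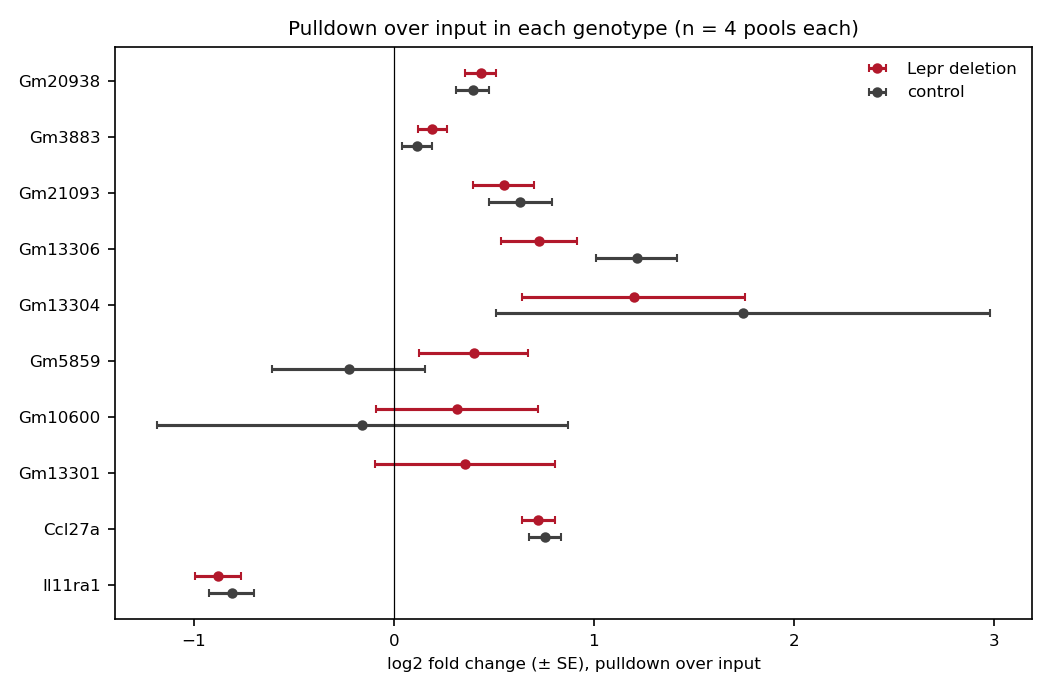
Log2 pulldown over input (± SE) of the members in Lepr-deletion pools (upper point) and control pools (lower point), 4 pools each. Control input of Gm13301 was at 0 in every pool and its control value is not drawn. On this TMM scale Ccl27a lies above 0 and Il11ra1 below 0 in both genotypes. On the TPM scales the average of Il11ra1 is 0.17 and 0.18, where the median of all genes is 0.67 and 0.87.

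The enrichment was also taken in each genotype. The difference of log2 enrichment, Lepr deletion minus control, was smaller than its SE for 5 members with ample counts, at 0.04 ± 0.11 for Gm20938, 0.08 ± 0.10 for Gm3883, -0.08 ± 0.22 for Gm21093, -0.03 ± 0.11 for Ccl27a and -0.07 ± 0.16 for Il11ra1 (SE). For Gm13306 it was -0.49 ± 0.28, with an enrichment of 0.73 ± 0.19 in Lepr-deletion pools and 1.21 ± 0.20 in control pools. Among the members at or near 0 in controls it was 0.62 ± 0.47 for Gm5859, 0.47 ± 1.14 for Gm10600 and -0.55 ± 1.33 for Gm13304. Gm13301 had -5.03 ± 2.48, with control input at 0 in every pool. These differences share their libraries with the genotype differences and are given without a test.

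Genes of the pathways around the neighbours were listed next. Of 21 genes of interleukin-11 and gp130 signalling other than Il11ra1, 15 were tested for enrichment, of which 13 fell and 1 rose in pulldown (edgeR, adjusted p under 0.05), where 38.4% of the 18530 genes tested were lower and 34.1% higher. Il6st, which encodes gp130, had a log2 value of -0.89 ± 0.05 (adjusted p = 6.7e-12), Stat3, a transcription factor that gp130 activates, had -0.52 ± 0.031 (adjusted p = 1.1e-11), Lifr, the receptor of leukaemia inhibitory factor, had -1.15 ± 0.085 (adjusted p = 3.4e-10) and the kinase gene Jak2 had -0.31 ± 0.028 (adjusted p = 7.2e-09). The kinase gene Jak1 rose by 0.26 ± 0.038 (adjusted p = 6.5e-06). These values are on the TMM scale. DESeq2 called 14 of the 15 genes, and limma called 11 on log2(TPM + 1) and 11 on log2(TPM + 0.1). On both TPM scales Il6st was not under an unadjusted p of 0.05 in limma. Those scales moved the median of all genes to 0.67 and 0.87, and the directions of the list on them are not given here. Interleukin-11 itself, Il11, was below the filter, with 47 counts over the 16 libraries. Markers of astrocytes, oligodendrocytes and microglia fell in pulldown with the list, by medians of -4.47, -3.52 and -4.09, and their part in it was not tested.

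Between genotypes, 0 of 13 tested genes of that list were called in pulldown and 0 of 15 in input by edgeR, with 2 and 1 at an unadjusted p under 0.05. Over all genes tested, edgeR called 0.641% in pulldown and 0.231% in input. DESeq2, which called far more genes than edgeR over the whole table, called 2 of the list in pulldown, Ctf1 and Ptpn11, and 0 in input. On log2(TPM + 1) limma called 0 of the list in both. Ctf1, the gene of a gp130 ligand, averaged 0.285 ± 0.0908 CPM in Lepr-deletion pulldown and 0.574 ± 0.155 CPM in control pulldown (adjusted p = 0.122, edgeR). Of 9 chemokine and receptor genes other than Ccl27a, 2 were tested for enrichment and 0 were called by edgeR, DESeq2 or limma, also at an unadjusted p under 0.05. Ccr10, the receptor of CCL27, averaged 0.19 ± 0.0799 CPM in Lepr-deletion pulldown and 0.216 ± 0.0793 CPM in control pulldown, with a log2 pulldown over input of -0.47 ± 0.33 (adjusted p = 0.215, edgeR). Ccr7, the receptor of CCL21, had 10 counts over the 16 libraries.

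Likeness to the cluster was measured as Pearson's r between log2 CPM of each gene and of the 8 predicted genes summed, over the 16 libraries, which share genotype and fraction. Gm17167 had the highest r, 0.955, followed by Snapc3 on chromosome 4 (0.951), Zscan26 on chromosome 13 (0.932), Tusc1 on chromosome 4 (0.904) and Psmd9 on chromosome 5 (0.881). Gm17167, for which no position was matched, averaged 13.3 ± 0.813 CPM in Lepr-deletion pulldown and 0.516 ± 0.108 CPM in control pulldown. Its input means were 9.76 ± 2.25 CPM in Lepr-deletion pools and 0.603 ± 0.144 CPM in control pools. Snapc3, which encodes a subunit of the complex that drives transcription of small nuclear RNA genes, averaged 49.8 ± 2.03 CPM in Lepr-deletion pulldown and 31.0 ± 3.41 CPM in control pulldown. Within the cluster, r with the sum was 0.80 to 0.99 for the 8 predicted genes, which are part of it, 0.20 for Ccl27a and -0.40 for Il11ra1.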

How the data were processed

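Salmon 1.10.1, DESeq2 1.38.3 and build GRCm38 are named in the submitters' processing notes; the sources used here do not give the annotation release, trimming or strand setting. The authors deposited estimated counts per gene, estimated counts rescaled from TPM, and TPM. The authors' deposited table of comparisons holds log2 fold changes and adjusted p-values, and served here only for its gene names. Salmon's estimates divide reads among similar transcripts, so the rows of near-identical copies are uncertain.

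Estimated counts were rounded and tested with edgeR 4.0.16 (R 4.3.3; filterByExpr with minimum count 10 and minimum total 15, TMM scaling, quasi-likelihood test, two-sided, Benjamini-Hochberg adjustment over all genes tested at 0.05). Genotype comparisons used the 8 libraries of a fraction, and enrichment used all 16 with group means. The procedure was tested on simulated data. CPM use the library totals scaled by TMM over the 16 libraries. Log2 CPM for likeness used a prior count of 2. Floors cover counting error only.

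Members and gene lists were chosen with earlier results of these data known. Named genes were the 10 members, Lepr, Pnoc and Rpl10a, the nearest tested row on either side, the 5 genes most like the cluster, and for each pathway list those that passed or the up to 4 with the smallest p. Rpl10a, the gene of the tagged protein, had a log2 pulldown over input of 0.23 ± 0.03 (SE; adjusted p = 1.3e-06, edgeR). Marker lists of endothelium (2 of 2 tested lower in pulldown), fibroblasts (3 of 3 lower), choroid plexus (1 of 2 lower) and keratinocytes (0 of 1 called) were also read; no T cell marker passed the filter.

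Pools are separate sets of animals. Within-group pairs of libraries differed by more than counting noise, with 7.76 to 46.5 as the chi-square over its degrees of freedom in 24 pairs. Input and pulldown of one number come from one lysate per the labels' protocols, and their deviations from the group means correlated at 0.00 to 0.179, over 0.1 in 1 of 8 pools. Alternatives were RLE factors, library totals, no filter, DESeq2 1.42.0, the rescaled counts, limma 3.58.1 on log2(TPM + 1) and log2(TPM + 0.1), each pool left out, the replicate block or all 16 libraries in 1 fit, the members summed into 1 row, and, chosen after seeing the data, the 5 CCL21 copies summed. The calls among the other genes of the interval without pool 5 are not reported here.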

Additional observations from a re-analysis of the deposited data

Results flagged for a closer look

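Of 39 sets of 4 libraries (the members by group, leaving out the one with no spread), 6 had a library that stood apart from the others by more than Dixon's critical gap, where chance gives about 1 in 20. In Lepr-deletion input, Gm13304 was at 0 CPM in pool 8 and at 1.76 to 2.07 CPM in the other pools. Il11ra1 was lower in that library as well, at 5.48 CPM against 6.68 to 6.77 CPM in the other pools. Gm3883 was at 20.8 CPM in Lepr-deletion input pool 5 and at 17.9 to 18.4 CPM in the others. In control pulldown, Gm10600 was at 0.125 CPM in pool 1 and Gm13301 at 0.285 CPM in pool 3, with the other control pools of each at 0. With the others at 0 the gap equals the whole range by construction, so the rate of 1 in 20 does not hold for such sets. Ccl27a was at 28.4 CPM in control input pool 1 and at 36.2 to 37.7 CPM in the other pools. The causes were not tested.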

How the results depend on the processing

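The genotype differences of the 8 predicted genes were positive under every alternative that gave a value, leaving aside Gm13304 in input, which was below the filter. The genes were chosen for this difference in the same libraries, so its sign under the alternatives is no separate support. In pulldown the values for Gm13301 and Gm10600 were 5.92 and 6.16, and leaving out 1 pool gave 5.49 to 11.56 and 5.75 to 10.64. The highest came without pool 3 for Gm13301 and without pool 1 for Gm10600, where the remaining control pulldowns are at 0, so these fitted values are no bounds. On log2(TPM + 1) they were 2.39 and 1.94.

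The numbers of genes called over the whole table were unstable. In pulldown the count was 108, and it was 266 with no filter, 1065 with DESeq2, 16 with the rescaled counts, 30 and 22 with limma on log2(TPM + 1) and log2(TPM + 0.1), 508 with all 16 libraries in 1 fit and 39 with the 10 members summed. Leaving out 1 pool gave 19 to 1262, with 556 without pool 1 and 1262 without pool 5. In input the count was 41, and it was 108 with library totals, 261 with no filter, 380 with DESeq2, 11 with the rescaled counts and 22 and 20 with limma. Leaving out 1 pool gave 19 to 402, with 402 without pool 1 and 337 without pool 5. With library totals, higher genes made up 39.5% of the calls in pulldown against 61.1% with TMM, and 87.0% against 58.5% in input.

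For enrichment the count was 13434 and 12974 to 16342 under the alternatives. Library totals moved the median of all genes to 0.46 and limma on TPM to 0.67 and 0.87, and with these the share of higher calls was 72.6%, 81.4% and 81.2% against 47.1%. On these TPM scales Il11ra1 had 0.17 and 0.18, below the median of all genes, so its sign turned with the scaling. Leaving out 1 pool gave -2.04 to 0.53 for Gm10600, with -2.04 without pool 1, where its control pulldown was at 0 in the remaining pools. With the replicate block Gm13304 had 1.66, and none of the 7 members tested changed its call. Gm5859 was called at 0.57 with library totals and at 0.44 and 0.81 on the TPM scales.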
